A study of Mus musculus with 7 samples.

Results

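The cytoplasmic ribosomal protein genes encode the protein part of the ribosome, the particle that translates mRNA. The members were taken by name from the gene table, as symbols that start with Rpl or Rps followed by a digit, plus Rpsa, Rplp0, Rplp1 and Rplp2. S6 kinase genes (Rps6k), pseudogene rows (-ps) and rows with fewer than 70 counts over the 7 libraries were left out. This gave 86 of the 25571 rows, 51 named for the large and 35 for the small subunit. Of these, 77 are core ribosomal proteins (46 large, 31 small). The other 9 are the paralogs Rpl22l1, Rps27l, Rpl36al and Rpl7l1, the copies Rpl6l, Rpl35rt, Rps3a2 and Rps4l, and Rps19bp1, a binding partner of Rps19 that is not a ribosomal protein. Another 7 rows matched the names but fell under the count minimum, Rpl39l being the nearest with 50 counts in all, against 597 for Rps27l, the member with the fewest.

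The RNA came from CD11b+ tumour-associated macrophages, sorted from dissociated T387 glioblastoma xenografts in the brains of immunodeficient NSG mice. All mice carried the xenograft, and dosing began 7 days after implantation, 4 times a week for 3 weeks. Of the 7 libraries, 4 came from mice given the histone deacetylase inhibitor Pracinostat by oral gavage (30 mg/kg) and 3 from mice given the DMSO-containing solvent alone. The labels also give 3 mg/kg for the drug's preparation, so the dose is stated in 2 ways. The labels call them biological replicates without tying them to animals or giving age or sex, so the tests measure the spread between these samples. The mice lack T, B and NK cells, and the sort on CD11b takes any myeloid cell, whether microglia or blood-derived.

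Cells make ribosomal proteins in matched amounts, since each ribosome holds a single copy of nearly every one. Their mRNAs are short and abundant and mostly begin with a terminal oligopyrimidine (TOP) tract, a C followed by a run of C and T bases at the very start of the transcript. Through this tract the growth-sensing kinase complex mTORC1 and the RNA-binding protein Larp1 control the translation of the whole group together. In macrophages, translation output rises and falls with growth factor and inflammatory signals.

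A long run of C and T bases lies at or near the annotated start of some members and not of others. The windows below run from 10 bases before to 20 bases from the annotated RefSeq start, 5′ to 3′ on the gene's strand (GRCm38.p6; the counts were made on GRCm39 and carry no coordinates). Capitals mark the longest run that begins with C and continues in C or T. The first 6 are core genes with a long run in the window. In Rpl13a and Rpl7a the annotated start base itself is not a C. The last 3 are members whose longest run in the window was short, shown for contrast.
Rps6, chr4:86857348-86857377, minus strand: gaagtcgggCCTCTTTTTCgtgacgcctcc
Rpl13a, chr7:45128726-45128755, minus strand: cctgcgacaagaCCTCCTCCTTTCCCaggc
Rpl7a, chr2:26910797-26910826, plus strand: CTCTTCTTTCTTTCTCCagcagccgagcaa
Rpl35, chr2:39005112-39005141, minus strand: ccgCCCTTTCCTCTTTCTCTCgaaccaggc
Rpl28, chr7:4792955-4792984, plus strand: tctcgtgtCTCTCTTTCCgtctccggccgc
Rps18, chr17:33955646-33955675, minus strand: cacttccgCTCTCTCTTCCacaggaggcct
Rpl5, chr5:107900518-107900547, plus strand: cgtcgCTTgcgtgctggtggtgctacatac
Rpl7l1, chr17:46782637-46782666, minus strand: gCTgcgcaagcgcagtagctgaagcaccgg
Rps19bp1, chr15:80264287-80264316, minus strand: cggaagtagCTCgccgcgtgtgggcggggc

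Of the 86 members, 62 had an entry in the RefSeq promoter table. A run of at least 8 such bases (C, then 7 or more of C or T, on the gene's strand) stood in the window at 23 of 67 annotated starts of core genes (34.3%), against 8.68% of all 32851 starts. The share was 35% for the large and 33.3% for the small subunit, and 6.67% of 75 starts for the mitochondrial ribosomal proteins, which serve the separate ribosome of the mitochondrion. Exactly at the start, C followed by 4 bases of C or T stood at 13 of 67 core starts (19.4%) against 2.51% of all starts. An annotated start can lie some bases from the one the cells used, so a window without the run says nothing about the mRNA's own end.

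The libraries held 10142753 to 16950597 counts. Among macrophage markers, Itgam, which encodes the sorted CD11b, had a mean of 1472 ± 192 CPM in the vehicle libraries (SD, n = 3) and 1812 ± 521 CPM in the treated ones (SD, n = 4). The growth factor receptor Csf1r had 2096 ± 176 CPM and 2231 ± 541 CPM in the same order. Others were lower with Pracinostat, such as Cd68 (1287 ± 343 and 1111 ± 309 CPM) and Mrc1 (377.7 ± 28.5 and 253.3 ± 145 CPM). Of the 16 macrophage markers listed, 9 were higher and 7 lower with Pracinostat, where 47.7% of all genes were lower. In ribosomal protein RNA, DMSO 1 and DMSO 2 stood apart in opposite directions, with the highest and the lowest share of all 7 libraries. DMSO 2 and Pracinostat 1 also held more collagen RNA: a list of 12 fibroblast markers, led by collagens, held 0.124% and 0.0912% of counts there, against 0.00708 to 0.0179% elsewhere. Of these markers 10 passed the filter on low counts. Col1a1 was at 702 and 440.0 CPM in those libraries and at 11.7 to 32.2 CPM elsewhere, while Lum and Fbln1 were at or near 0 in both groups. The list did not move as one: Pdgfra was alike in the 3 vehicle libraries (4.038 ± 0.154 CPM, SD), and Postn had a mean of 26.6 ± 15.7 CPM with DMSO and 83.7 ± 63.3 CPM with Pracinostat. Markers of endothelium (0.00989 to 0.0452%), neutrophils (0.0274 to 0.0584%), neurons and astrocytes (0.00905 to 0.0147%) and oligodendrocytes (0.0391 to 0.124%, highest in Pracinostat 1) held small shares.

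Ribosomal protein genes as a group differed between Pracinostat and DMSO by far less than the libraries differed among themselves. They held 2.34, 1.53 and 1.90% of counts in DMSO 1, 2 and 3, and 2.09, 1.82, 1.94 and 1.85% in Pracinostat 1 to 4. All 4 treated libraries thus lay inside the range of the vehicle libraries. The means were 1.923 ± 0.403% (SD, n = 3) and 1.924 ± 0.123% (SD, n = 4). The large subunit genes held 1.218 ± 0.241% and 1.209 ± 0.0691%, and the small subunit genes 0.7053 ± 0.161% and 0.7141 ± 0.0559%, each with DMSO and Pracinostat in that order.

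The ratio of summed counts between the subunits varied less than the total. Counts of large over small subunit genes stood at 1.67, 1.78 and 1.75 in DMSO 1 to 3 and at 1.67, 1.74, 1.63 and 1.73 in Pracinostat 1 to 4. The means were 1.735 ± 0.0533 (SD, n = 3) and 1.696 ± 0.0519 (SD, n = 4), and the groups overlapped. While the members' total share varied from 1.53 to 2.34% between libraries, this ratio stayed between 1.63 and 1.78. Weighting each gene equally, the mean log2 CPM of large minus small subunit genes was 0.49, 0.44 and 0.42 with DMSO and 0.37, 0.43, 0.33 and 0.43 with Pracinostat. On that scale DMSO 1 was the highest library, while its count ratio was among the lowest, and the groups overlapped on both.

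**Figure D1:**
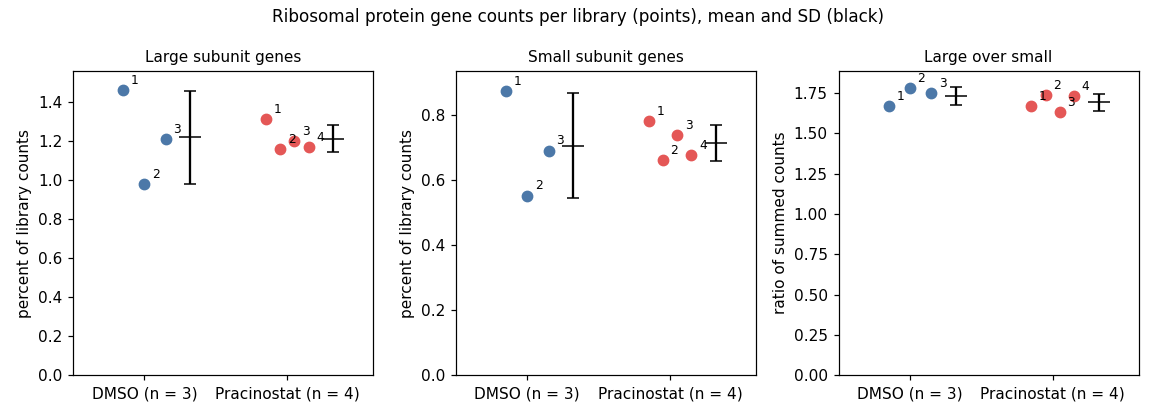
Share of library counts held by large subunit genes (left) and small subunit genes (middle), in percent, and their ratio (right), for each of the 7 libraries (points with replicate number) with the group mean and SD in black. The Pracinostat points lie within the span of the DMSO points for both shares, and DMSO 1 and DMSO 2 form the ends.

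Gene by gene, no member passed the test. All 86 members passed the filter on low counts. With edgeR, 0 of them fell under an adjusted p of 0.05, and their smallest adjusted p was 1. Over all 15822 genes tested the count was also 0 (0%), with 661 genes (4.18%) at an unadjusted p under 0.05. DESeq2 called 27 genes (0.171%), edgeR with no filter 63 (0.246%), edgeR with a replicate block 4 (0.0261%) and limma-voom 0 (0%), and 0 members were among them. With all 7 libraries and the filter, edgeR gave 0 members an unadjusted p under 0.05. Some members fell under it in other settings, Rpl5 in the most (given below). Without DMSO 2 and Pracinostat 1, edgeR put 3 members under it on the lower side (1.9% of all genes) and 0 on the higher. Among these were Rpl27 (-0.55, edgeR unadjusted p = 0.0217) and Rpl35 (-0.43, edgeR unadjusted p = 0.0349). Without DMSO 1 it was 2 members on the higher side and 1 on the lower. The groups did not overlap for 0 members, against 2.59% of all genes on the lower and 3.51% on the higher side.

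Fold changes of the members lay in a narrow band around 0. Of the 77 core genes 44 were positive (52.3% of all genes were) and 33 negative (42.9%, against 47.7% of all genes), with a median log2 fold change (Pracinostat minus DMSO) of 0.02, the same as over all genes. With limma-voom 29.9% of core genes were negative, against 45.4% of all genes. With total counts and no scaling the shares were 51.9% and 50%. The middle of the band ran from -0.04 to 0.08 (quartiles), against -0.26 to 0.30 for all genes. Core genes also had a smaller median standard error, 0.18 against 0.41. Lists with a like error had quartiles of -0.10 to 0.14 (macrophage markers, error 0.18) and -0.02 to 0.18 (translation factors with TOP mRNAs, 0.17). The part of measurement error in the width of the band was not tested. The core large subunit had 23 of 46 positive with a median of 0.00, and the core small subunit 21 of 31 positive with a median of 0.05. The 95% interval of the difference lay within 2-fold either way for all 77 core genes, and within 1.5-fold for 66 of them. Differences inside those intervals could not be told from 0 with these libraries.

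**Figure D2:**
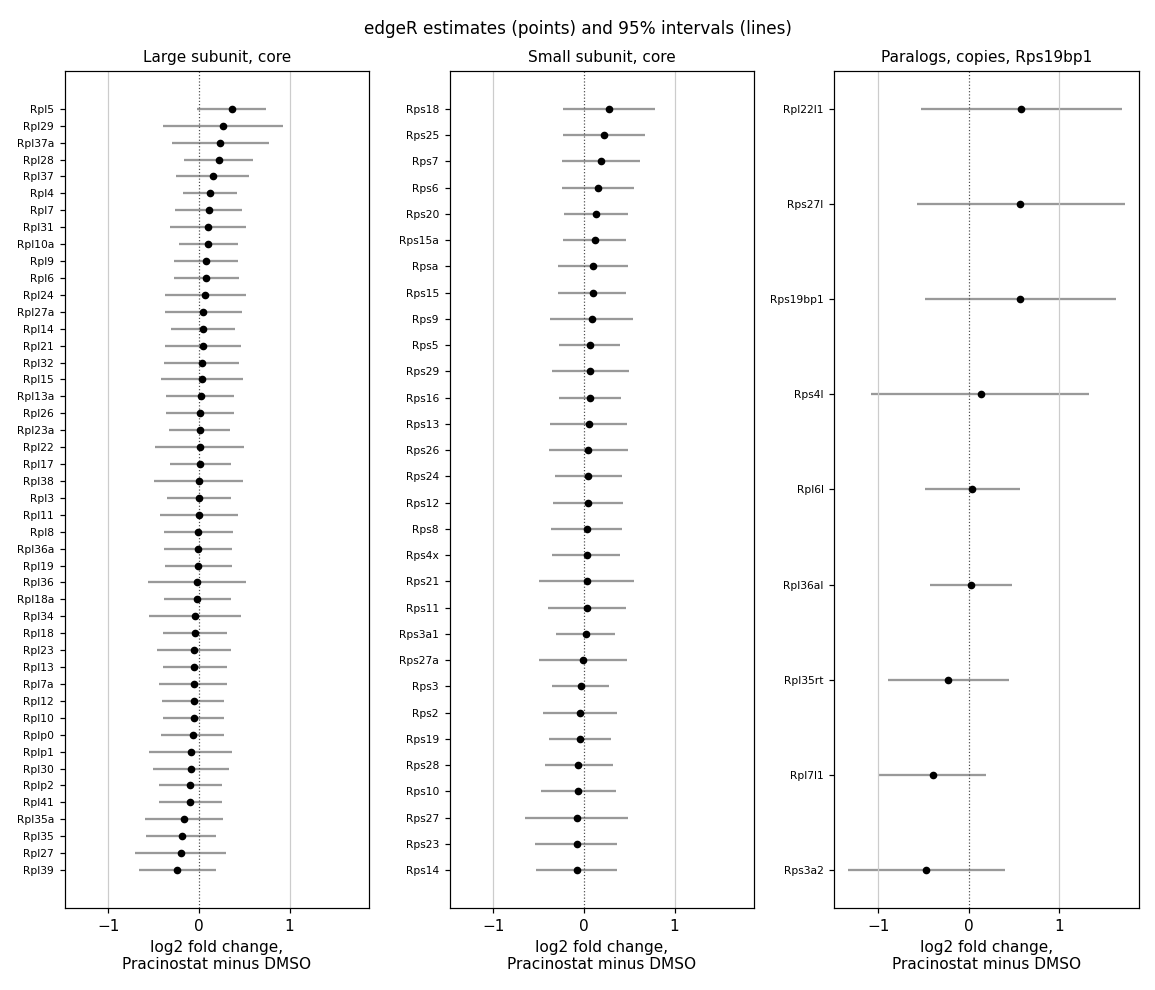
Log2 fold change of each member, Pracinostat minus DMSO (horizontal axis), as the edgeR estimate (point) with its 95% interval (line), for core large subunit genes, core small subunit genes (1 not drawn) and the other 9 members. Grey vertical lines mark 2-fold either way. Core estimates run from -0.24 to 0.36 and no interval of a core gene reaches past 2-fold, while those of Rpl22l1, Rps27l, Rps19bp1, Rps4l and Rps3a2 do.

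Rpl5 came closest to a difference. It encodes a protein that joins the ribosome together with Rpl11 and the smallest rRNA, a particle that also restrains Mdm2 and thereby stabilises p53. Rpl5 stood at 270.2, 176 and 289 CPM in DMSO 1 to 3 and at 345, 306, 321 and 285 CPM in Pracinostat 1 to 4. Only DMSO 3 reached into the treated range, just above Pracinostat 4. Its log2 fold change was 0.36 ± 0.18 (edgeR adjusted p = 1, unadjusted p = 0.0632). Without DMSO 2 it was 0.17 (edgeR adjusted p = 0.999). Without DMSO 3 it was 0.49 (edgeR adjusted p = 0.89, unadjusted p = 0.0275). The unadjusted p was also under 0.05 with no filter (0.0422), with limma-voom (0.0456) and with a replicate block (0.0317), while the adjusted p ran from 0.618 to 1 over the settings tried. Its partner Rpl11 stood at 238, 129.6 and 201 CPM with DMSO and 230.0, 169, 178 and 181 CPM with Pracinostat, a log2 fold change of 0.00 ± 0.20. In Rpl11 the treated libraries were all within the vehicle range.

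The differences of 4 other core members among those with the smallest p were smaller than the SD of the vehicle libraries, and none passed the test. Rpl28, a large subunit protein, stood at 204, 127 and 150 CPM with DMSO and 214, 178, 171 and 183 CPM with Pracinostat (0.22 ± 0.18, adjusted p = 1 by edgeR). Rpl39, a short protein of the exit tunnel, stood at 104, 71.0 and 67.7 CPM and at 78.3, 64.2, 61.1 and 71.5 CPM (-0.24 ± 0.20, adjusted p = 1). Rpl35, which lies near the tunnel exit, was at 338, 204 and 263 CPM and at 274, 222, 229.9 and 214 CPM (-0.19 ± 0.18). Rpl27 was at 140.3, 61.4 and 110.2 CPM and at 106, 77.1, 87.4 and 91.2 CPM (-0.20 ± 0.24). In each of these genes DMSO 1 was above every other vehicle library, and the groups overlapped. Without DMSO 1, Rpl28 was at 0.43 (edgeR adjusted p = 0.944, unadjusted p = 0.0376) and Rpl39 at -0.01. Without DMSO 2, Rpl27 was at -0.47 (edgeR adjusted p = 0.999, unadjusted p = 0.0301).

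Members known for roles of their own also differed by less than their error. Rps6, the protein phosphorylated by the S6 kinases downstream of mTORC1, stood at 539, 299.8 and 443 CPM with DMSO and 529, 484, 464 and 428 CPM with Pracinostat (0.16 ± 0.19). Rpsa, also known as a laminin receptor, was at 1290, 766 and 1020 CPM and at 1270, 978, 1190 and 949 CPM (0.10 ± 0.18). Rpl13a, which in monocytes is released from the ribosome to silence inflammatory mRNAs after interferon-gamma, was at 687, 430.2 and 566 CPM and at 649.9, 479, 569 and 572 CPM (0.02 ± 0.17). In all 3 genes DMSO 1 was the highest library and DMSO 2 the lowest.

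The stalk proteins, which recruit elongation factors to the large subunit, gave small differences. Log2 fold changes were -0.07 ± 0.17 for Rplp0, -0.09 ± 0.21 for Rplp1 and -0.10 ± 0.16 for Rplp2. Rps3, at the mRNA entry of the small subunit, was at -0.03 ± 0.15, and Rps19, the gene most often mutated in Diamond-Blackfan anaemia, at -0.04 ± 0.16. Rpl10, which is among the last proteins to join the large subunit, was at -0.06 ± 0.16, and Rpl38, known for a part in the translation of Hox mRNAs, at 0.00 ± 0.23. Rps27a, made as a fusion with ubiquitin, was at -0.01 ± 0.23. Ribosomal proteins whose symbols the rule does not take include Fau, a fusion with a ubiquitin-like protein, at -0.05 ± 0.19, and the scaffold Rack1, at 0.00 ± 0.16.

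The paralogs, copies and Rps19bp1 had a median standard error of 0.40, against 0.18 for core genes, with Rpl36al at 0.21. Per kilobase of coding length, Rpl22l1, which can take the place of Rpl22, stood at 3.82 ± 0.814% of Rpl22 with DMSO (SD, n = 3) and 6.40 ± 3.46% with Pracinostat (SD, n = 4). By library this ratio was 3.94, 2.95 and 4.56% with DMSO and 3.45, 4.07, 7.07 and 11% with Pracinostat, so that Pracinostat 3 and 4 lay above the vehicle range and the other treated libraries inside it. The log2 fold change was 0.58 ± 0.52 for Rpl22l1 (edgeR adjusted p = 1) and 0.01 ± 0.23 for Rpl22. Without DMSO 2 Rpl22l1 was at 0.26 and without DMSO 1 at 0.80. Rps27l, a paralog of Rps27 and a p53 target, stood at 10.2 ± 3.7% of Rps27 (SD, n = 3) and 16.4 ± 5.69% (SD, n = 4), with log2 fold changes of 0.57 ± 0.54 for Rps27l and -0.08 ± 0.27 for Rps27. Rps27l was at 0.25 without DMSO 2 and at 0.82 without DMSO 1. By the same measure Rpl36al stood at 46.3 ± 2.75% and 47.7 ± 2.92% of Rpl36a, its near-identical relative with which it may share reads. These percentages leave out the untranslated parts of the mRNAs, so they may differ from ratios of transcript levels. Rpl7l1, a homologue of Rpl7 that acts in ribosome assembly, was at -0.40 ± 0.28, from 32.7, 30.4 and 21.9 CPM to 20.7, 25.6, 15.7 and 23.5 CPM, while Rpl7 was at 0.11 ± 0.17. Rps19bp1 was at 0.57 ± 0.49, Rps3a2 at -0.47 ± 0.40 and Rps4l at 0.13 ± 0.56. Rps3a2 ran from -0.09 without DMSO 3 to -0.85 without DMSO 1 (edgeR adjusted p = 0.944, unadjusted p = 0.027).

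What differed between libraries was the group as a whole, most of all within the vehicle group. A typical core gene by itself varied less than a typical gene. The median SD of log2 CPM over the 7 libraries was 0.24 for core genes, against 0.53 for all genes tested. DMSO 2 was the lowest library for 70 of the 86 members (81.4%, against 22.6% of all genes), and DMSO 1 the highest for 61 (70.9%, against 13%). As deviations from each gene's own average, the core genes had a median log2 CPM of 0.29, -0.38 and 0.01 in DMSO 1 to 3 and of 0.20, -0.03, -0.02 and -0.06 in Pracinostat 1 to 4. The distance between DMSO 1 and DMSO 2 was 0.69 (median over core genes), against a treatment difference of 0.02. Over the 7 libraries the levels of member pairs had a median Pearson r of 0.73, and 94.1% of 3655 pairs were positive. These pairs share the same libraries and the same scaling. No such value was taken over other genes, so whether it is particular to the members was not tested. Rps24 of the small subunit followed the mean of the other core genes closely (r of 0.99, n = 7 libraries). Rps13 (0.27) and Rpl35a (0.32) followed it least among core genes, and Rps3a2 (-0.55), Rpl7l1 (-0.07) and Rps4l (0.02) among the others.

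**Figure D3:**
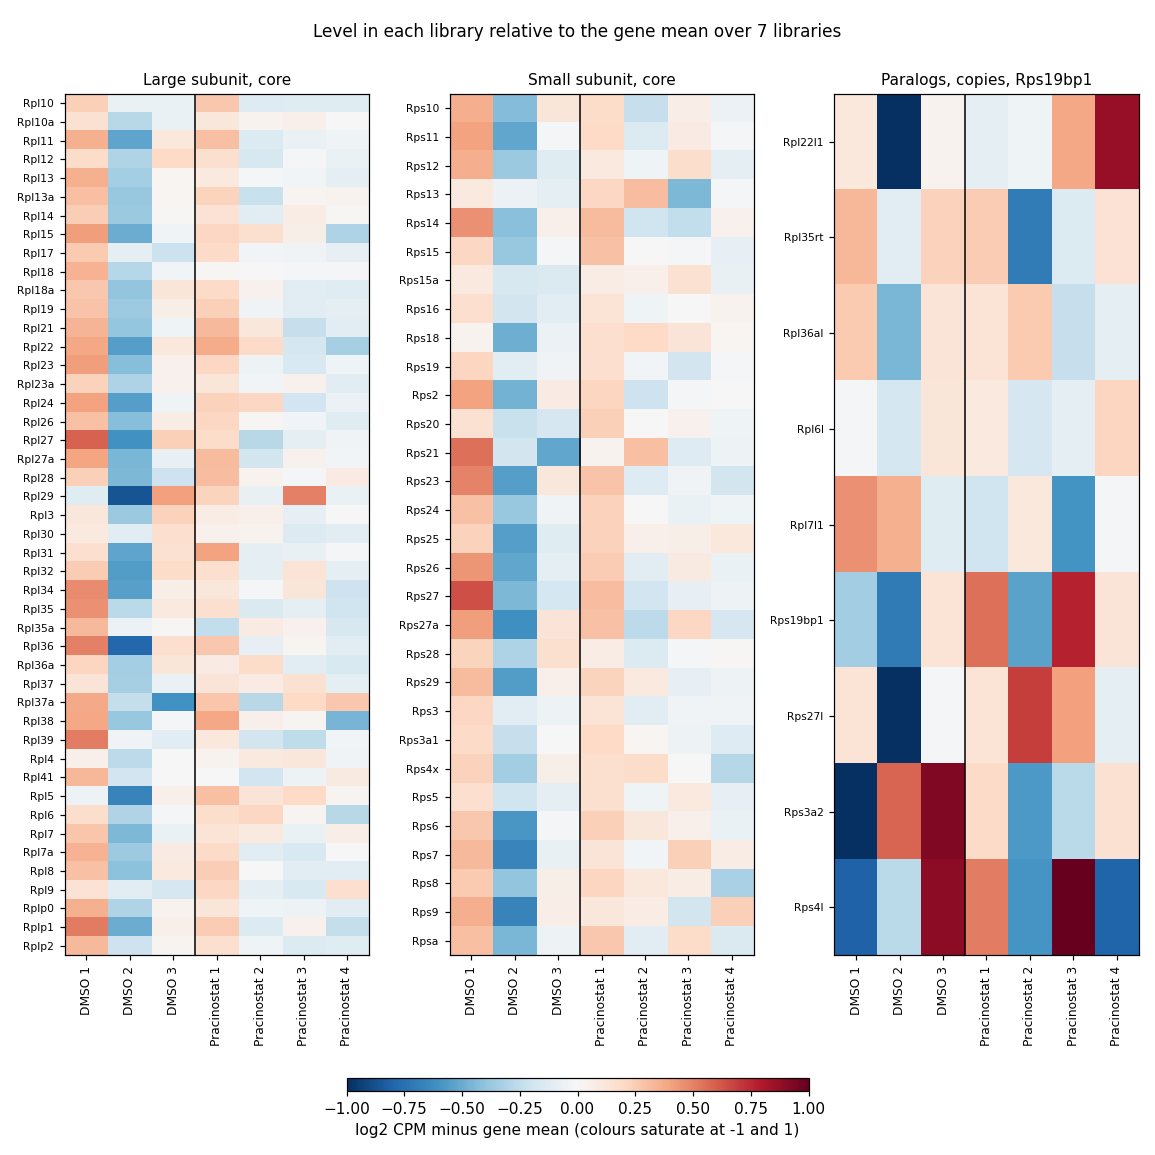
Level of each member in each library as the deviation in log2 CPM from that gene's own 7-library mean (colour, red higher and blue lower), for core large subunit genes, core small subunit genes (1 not drawn) and the other 9 members; the vertical line parts DMSO from Pracinostat. DMSO 1 is the highest library for 76.6% and DMSO 2 the lowest for 84.4% of core genes, while the other 9 members vary more from gene to gene.

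Other short mRNAs shared part of this pattern. Core members have a median transcript length of 780 bases. Among 317 other genes under 1000 bases expressed at an average log2 CPM of 4 or more, the medians were 0.24, -0.16 and 0.13 in DMSO 1 to 3 and 0.21, -0.02, -0.15 and -0.08 in Pracinostat 1 to 4, and the distance between DMSO 1 and DMSO 2 was 0.42. In Pracinostat 3 and DMSO 3 they parted from the core genes, which were at -0.02 and 0.01 there. For 4285 genes of 1000 to 4000 bases that distance was 0.10 and for 2510 longer genes -0.11. The 78 mitochondrial ribosomal protein genes, with a median length of 1255 bases, had a distance of 0.52. DMSO 2 was the lowest library for 84.4% of core genes, 30.9% of the other short genes and 30.8% of the mitochondrial set, against 22.6% of all genes. DMSO 2 also had the fewest genes detected (16319, against 16604 to 19244), the most collagen RNA and 17600 CPM of the nuclear RNA Malat1, where the other vehicle libraries had 12600 and 13500 CPM and Pracinostat 4 had 17200 CPM. The part of transcript length, collagen RNA and nuclear RNA in the members' spread was not tested. In bulk RNA, fewer cells rich in these mRNAs and less of them per cell cannot be told apart.

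**Figure D4:**
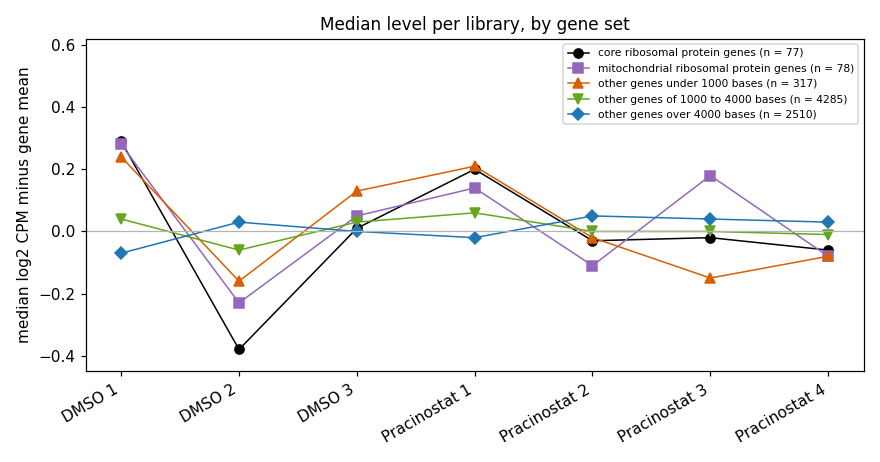
Median log2 CPM minus gene mean in each library (vertical axis), for core ribosomal protein genes, mitochondrial ribosomal protein genes and other genes by transcript length. The core genes run from 0.29 in DMSO 1 to -0.38 in DMSO 2, the other genes under 1000 bases from 0.24 to -0.16, and genes over 4000 bases stay between -0.07 and 0.05.

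The direction of the group's difference turned with the vehicle libraries used. DMSO 1 and DMSO 2 were the highest and lowest libraries for most members. A shift up without DMSO 1 and down without DMSO 2 thus follows from their levels. Without DMSO 1, 74 of 77 core genes were positive (53.6% of all genes were) and the core median was 0.19. Without DMSO 2, 65 of 77 were negative (47.6% of all genes) and the core median was -0.14. The same 62 core genes were positive in the first case and negative in the second. These genes move together, so the counts are not separate evidence. With DMSO 2 and Pracinostat 1 both left out, the libraries rich in collagen RNA, 68 of 77 were negative (47.8% of all genes) and the core median was -0.19. In each of these fits 0 members passed the edgeR test.

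**Figure D5:**
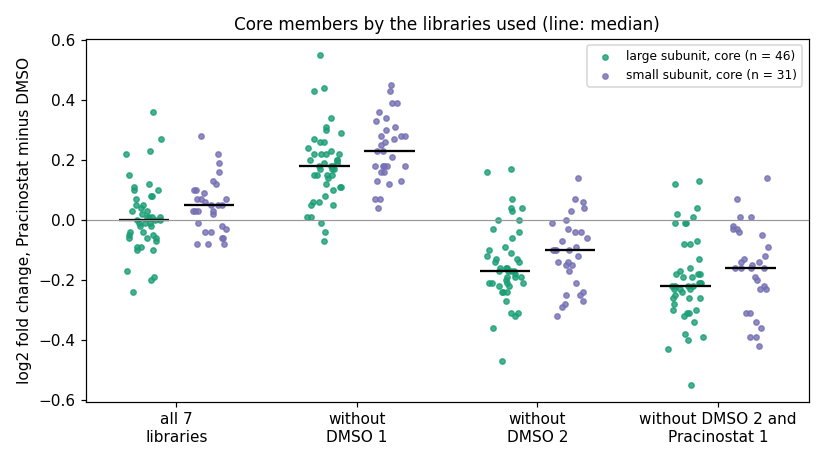
Log2 fold change, Pracinostat minus DMSO (vertical axis), of the core members (points, by subunit; black line, median) with all 7 libraries and with DMSO 1, DMSO 2 or both DMSO 2 and Pracinostat 1 left out. The cloud sits around 0 with all libraries, above 0 without DMSO 1 and below 0 without DMSO 2.

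Some members have close copies among the pseudogene rows. The 117 pseudogene rows set aside held 108749 counts, 5.77% of the members' own. Rps18 had 2946 counts over the 7 libraries, while its pseudogene rows held 13383, 82% of the sum, and for Rpl34 the rows held 74.2%. Next came Rpl3 (37.5%), Rps7 (29.8%) and Rps6 (27.1%). Whether such reads came from the parent gene or the copy cannot be told from the table. Rps18, a small subunit protein, stood at 30.5, 21.2 and 28.5 CPM with DMSO and 33.3, 34.0, 32.5 and 30.2 CPM with Pracinostat, where only DMSO 1 reached into the treated range. With pseudogene counts added to the parents, Rps18 moved from 0.28 ± 0.24 to 0.06 ± 0.16 and Rpl34 from -0.04 ± 0.23 to -0.15 ± 0.19, Rps6 was at 0.18 ± 0.18, and 0 members passed.

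Genes that build the ribosome and run translation gave no call either. Of 66 ribosome assembly and RNA polymerase I genes (Rplp0 among them) 46 were positive, with a median of 0.20 against 0.02 over all genes, and 0 passed. The list held 0.381, 0.321 and 0.425% of counts in DMSO 1 to 3 and 0.401, 0.407, 0.49 and 0.379% in Pracinostat 1 to 4. Here too DMSO 2 was the lowest library, and the groups overlapped. The part of DMSO 2 in the list's median was not tested. At an unadjusted p under 0.05, 7 were higher and 0 lower, against 2.81% and 1.37% of all genes. Ftsj3, a methyltransferase of the nucleolus, stood at 58.6, 39.3 and 51.1 CPM with DMSO and 64.4, 68.2, 93.8 and 73.9 CPM with Pracinostat (0.60 ± 0.21, edgeR adjusted p = 1). Polr1a, the largest subunit of RNA polymerase I, was at 56.4, 41.1 and 57.1 CPM and at 63.1, 101, 99.7 and 61.6 CPM (0.66 ± 0.23). In both genes every treated library lay above every vehicle library. That held for 7 of the 66 genes, with 0 the other way, against 3.51% and 2.59% of all genes. Sbds, which readies the large subunit for joining, was at 0.79 ± 0.31, with overlapping groups.

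Of 27 translation factors and related genes whose mRNAs carry the TOP tract, 19 were positive with a median of 0.09. Eif2s3x, a subunit of the factor that brings the initiator tRNA, was at 0.36 ± 0.16, Eef1g at 0.31 ± 0.16 and the poly(A)-binding protein Pabpc1 at 0.26 ± 0.16. Among 27 other translation factors 19 were positive with a median of 0.15, including the cap-binding protein Eif4e (0.49 ± 0.18) and Eif2b5 (0.31 ± 0.22). Eif2b1, a subunit of the exchange factor for that initiation factor, went the other way (-1.16 ± 0.39), with overlapping groups. In the TOP list the groups did not overlap for 2 genes on the higher side, Eif2s3x among them, and 0 on the lower. In the other list they did not for 2 on the higher side, Eif4e among them, and 1 on the lower. Over all genes the shares were 3.51% and 2.59%. The mTORC1 and S6 kinase axis had 12 of 22 positive (median 0.11), with its activator Rheb (-0.23 without DMSO 2) at 68.4, 97.2 and 71.6 CPM with DMSO and 66, 67.8, 53.3 and 51.2 CPM with Pracinostat (-0.41 ± 0.20), Larp1 at 0.24 ± 0.15 and Rptor at 0.22 ± 0.16. Host genes of small nucleolar RNAs had 8 of 15 positive (median 0.05), with Snhg12 at -0.41 ± 0.36, Snhg4 at 0.33 ± 0.35 and Snhg15 at 0.23 ± 0.32. The mitochondrial ribosomal protein genes had 37 of 78 positive and a median of -0.02. All of these had an edgeR adjusted p of 1.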

How the data were processed

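Total RNA from sorted cells was made into stranded low-input libraries and sequenced in pairs of 150 bases, per the labels' protocols. The authors deposited counts per gene symbol as whole numbers, not normalized, which were treated here as estimated counts because the submitters' processing notes name RSEM. Those notes also list STAR, DESeq2, Trim Galore, MultiQC and FastQC, with no versions or roles, and the build GRCm39. The annotation and strand setting were not given in the sources used here. How reads shared with pseudogenes were divided therefore rests on the authors' estimation.

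Differences were fitted with edgeR 4.0.16 in R 4.3.3: TMM scaling, filterByExpr (minimum count 10), robust quasi-likelihood, two-sided, Benjamini-Hochberg over 15822 genes, threshold 0.05. Log2 fold changes are given ± standard error, and levels as CPM on TMM-scaled library sizes. Deviations used log2 CPM with a prior count of 2. Shares and medians over members carry no test. Transcript and coding lengths came from GENCODE M21, found for 85 of 86 members and 90.1% of genes tested. Sequences came from RefSeq (GRCm38.p6) promoters. The edgeR code was also run on simulated counts with genes drawn independently, and no result here rests on that run. DESeq2 1.42.0 and limma 3.58.1 (voom) were alternatives.

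The members, lists and tests were chosen with earlier results of these data known. Named were the 5 members with the smallest p in each direction, members without group overlap (0), paralogs and parents, a set of members with known roles, Fau and Rack1, and up to 3 genes per translation list. The 7 libraries were checked for duplicates and none were alike within counting noise. Some genes covered by these rules are counted in the totals but not reported singly here.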

Additional observations from a re-analysis of the deposited data

Results flagged for a closer look

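Member levels and group measures, 104 in all, were searched for a single treated library far from the remaining ones (Dixon's 95% limit). This picked out 3, where chance alone picks about 1 in 20. Pracinostat 1 held 2 of them. Rpl10 was at 391 CPM in that library, against 297 to 299 CPM in the other treated libraries and 309 to 383 CPM with DMSO. Rpl31, a large subunit protein near the tunnel exit, was at 235 CPM, against 167 to 175 CPM and 124 to 200 CPM. The other was Rpl37a, low in Pracinostat 2 at 42.6 CPM, against 59.2 to 62.4 CPM in the other treated libraries and 33.9 to 67.1 CPM with DMSO. The DMSO group, with 3 libraries, was not screened.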

How the results depend on the processing

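The settings tried were other scalings, filters and tools, pseudogene counts added to the parents, a replicate block, each library left out, and DMSO 2 with Pracinostat 1 left out. In all of them 0 members passed. The count of genes passing, 0 by edgeR, was 63 with no filter on low counts, 27 with DESeq2 and 0 to 3 with 1 library left out (3 without DMSO 3). Between deviations of same-numbered libraries r was -0.0352 to 0.0728, against -0.074 to 0.0511 for differently numbered ones. With so few pairs, whether equal numbers stand for a shared day or batch cannot be told from these values. With the replicate block, which leaves out Pracinostat 4, 4 genes passed, the medians were 0.04 (large) and 0.10 (small), and Rps27a was at 0.08, Rpl36a at 0.03 and Rplp1 at 0.01. Of the core genes 42.9% were negative, against 29.9% with limma-voom, 27.3% with the block and 51.9% with total counts.

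With 1 library left out, the median ran from -0.17 to 0.17 for the large and from -0.10 to 0.23 for the small subunit, the difference in share of counts held by members from -0.194 to 0.208 percentage points and the difference in large to small subunit count ratio from -0.0683 to -0.017. Log2 fold changes that turned ran from -0.36 to 0.01 for Rpl35, -0.47 to 0.08 for Rpl27, -0.29 to 0.31 for Rps27, -0.16 to 0.10 for Rpl36a, -0.16 to 0.06 for Rpl10, -0.30 to 0.76 for Rps4l, -0.10 to 0.07 for Rps19 and for Rps3, -0.22 to 0.11 for Rplp0, -0.31 to 0.19 for Rplp1, -0.22 to 0.05 for Rplp2, -0.25 to 0.23 for Rps27a, -0.19 to 0.23 for Fau, -0.21 to 0.23 for Rpl22, -0.12 to 0.16 for Rps4x, -0.06 to 0.31 for Rpl7, -0.16 to 0.17 for Rpl36al, -0.04 to 0.36 for Rps6, -0.14 to 0.19 for Rpl13a and -0.07 to 0.30 for Rpsa. Values near 0.00 with all libraries ran from -0.21 to 0.20 for Rpl11, -0.17 to 0.22 for Rpl38, -0.16 to 0.12 for Rpl3 and -0.13 to 0.14 for Rack1. Without DMSO 2 and Pracinostat 1, Rpl22 was at -0.34, Rps4x at -0.16, Rpl7 at -0.07, Rpl36al at -0.19, Rps4l at -0.13, Rps6 at -0.09, Rpl13a at -0.21 and Rpsa at -0.14. Rpl22 was at -0.01 with total counts and Rps27a at 0.03 with limma-voom. Leaving out the highest or lowest vehicle library moves such values by itself. What set the libraries apart, and the cause of the remaining turns, was not tested.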
